A study of Mus musculus with 9 samples.

Results

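The genes described here are 36 genes of glycolysis and of the response to low oxygen, named in a list by gene symbol, out of 24411 genes in the tables. By role they comprise 17 glycolytic enzymes, 4 glucose and lactate transporters, 4 regulatory kinases and 11 genes of the hypoxia response, and all 36 had a row and were tested. RNA with poly(A) tails was sequenced from EB5 cells, a mouse embryonic stem cell line made from the male line E14tg2a of 129Ola background. Every group, controls included, carried the Oct3/4IRES-BSD-pA/+ allele of EB5 and was grown in GMEM with serum and LIF on gelatin, with no feeder cells. There were 3 libraries each of Parental cells, of Zfp352-KO cells, in which the zinc finger gene Zfp352 was deleted with CRISPR-Cas9, and of Zfp352/Zfp353-DKO cells, in which Zfp352 and Zfp353 were both deleted. The labels do not say that the libraries of a genotype came from separate clones or cultures, so the p-values reflect spread between libraries that may be technical, and a difference between genotypes may be one between the lines used.

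Glycolysis splits glucose into pyruvate in the cytosol, and lactate dehydrogenase then turns pyruvate into lactate, which monocarboxylate transporters carry out of the cell. Hypoxia-inducible factor (HIF) is a pair of an oxygen-labile alpha subunit, such as the product of Hif1a, and ARNT. Prolyl hydroxylases mark the alpha subunit for destruction when oxygen is present, so HIF activity is mostly set at the protein and not at the RNA level. HIF binds hypoxia response elements with the core ACGTG or GCGTG, and many glycolytic genes are among its known targets. Pluripotent stem cells are known for a high rate of glycolysis even where oxygen is plentiful.

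Expected counts, which are estimates that divide reads shared between genes, summed to 16599004 to 22044820 per library, and the 36 genes took 1.19% to 1.49% of them. Levels are given in TPM, a measure per transcript length and sequencing depth. Differences are log2 fold changes ± SE from edgeR's quasi-likelihood test, with a Benjamini-Hochberg adjusted p under 0.05 over 14300 genes counted as a call. As a check of the labels, Zfp352 had 1.76 to 2.05 TPM for Parental libraries, 0.16 to 0.41 TPM for Zfp352-KO and 0.04 to 0.14 TPM for Zfp352/Zfp353-DKO, with no overlap between Parental and either edited genotype. Zfp352 was deleted in both edited genotypes, so this checks only Parental against edited libraries. No level of Zfp353 is given here. The summed TPM of 10 embryonic stem cell markers ran from 7763 to 7911 over the 9 libraries. Of the 10 markers 1, Fgf4, was higher in Zfp352-KO and 2, Fgf4 and Sox2, in Zfp352/Zfp353-DKO cells, and 0 were lower. Of all genes tested 3.43% and 3.65% were higher, in that order, and 3.64% and 4.82% lower. With trends of transcript length and GC content removed, 5 markers were higher in each, against 3.01% and 5.73% of all genes.

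Sequences of 250 bases upstream of a start site, from RefSeq's annotation of GRCm38.p6, were found for 34 of the 36 genes. The 6 printed here belong to genes that were lower in Zfp352-KO cells. Among them Ldha, Slc2a1, Slc16a3, Ankrd37 and Ddit4 had the calls that changed least between ways of processing the data, and Tpi1 is shown because its promoter holds no hypoxia response core. Each is written 5′ to 3′ on the strand of the gene, in lower case, with every ACGTG or GCGTG on either strand in capitals, so that CACGT and CACGC mark a core on the other strand.
Ldha, chr7:46845554-46845803, + strand: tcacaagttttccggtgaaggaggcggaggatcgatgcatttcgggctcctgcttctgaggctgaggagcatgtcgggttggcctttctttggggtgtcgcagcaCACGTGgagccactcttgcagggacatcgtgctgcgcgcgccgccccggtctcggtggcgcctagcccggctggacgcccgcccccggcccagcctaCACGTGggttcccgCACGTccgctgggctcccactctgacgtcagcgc
Slc2a1, chr4:119108495-119108744, + strand: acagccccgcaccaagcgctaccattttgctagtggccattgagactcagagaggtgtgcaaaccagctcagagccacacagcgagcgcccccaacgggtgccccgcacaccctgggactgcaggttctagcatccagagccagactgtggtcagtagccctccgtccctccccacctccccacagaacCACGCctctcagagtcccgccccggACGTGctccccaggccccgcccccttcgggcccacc
Slc16a3, chr11:120948817-120949066, + strand: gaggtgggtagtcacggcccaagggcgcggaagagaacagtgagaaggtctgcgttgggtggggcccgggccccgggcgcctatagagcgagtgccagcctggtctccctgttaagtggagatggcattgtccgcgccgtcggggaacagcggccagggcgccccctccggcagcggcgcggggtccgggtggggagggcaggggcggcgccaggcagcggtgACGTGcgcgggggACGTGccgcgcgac
Ankrd37, chr8:45999851-46000100, - strand: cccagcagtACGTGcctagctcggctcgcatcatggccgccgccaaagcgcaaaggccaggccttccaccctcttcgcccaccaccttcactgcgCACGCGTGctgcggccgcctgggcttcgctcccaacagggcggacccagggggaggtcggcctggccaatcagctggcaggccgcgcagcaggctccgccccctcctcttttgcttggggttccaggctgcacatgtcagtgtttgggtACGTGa
Ddit4, chr10:59951771-59952020, - strand: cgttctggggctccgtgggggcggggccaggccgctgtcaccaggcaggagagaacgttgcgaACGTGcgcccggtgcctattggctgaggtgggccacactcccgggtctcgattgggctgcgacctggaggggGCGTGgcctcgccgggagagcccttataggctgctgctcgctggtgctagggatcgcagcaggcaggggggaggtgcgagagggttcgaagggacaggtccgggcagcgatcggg
Tpi1, chr6:124814159-124814408, - strand: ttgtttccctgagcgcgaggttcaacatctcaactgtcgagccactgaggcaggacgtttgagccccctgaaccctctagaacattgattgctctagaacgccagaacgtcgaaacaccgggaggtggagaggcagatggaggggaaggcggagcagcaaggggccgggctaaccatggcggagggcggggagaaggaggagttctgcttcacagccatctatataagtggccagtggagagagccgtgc

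Overlapping matches, such as both strands of CACGTG, were counted as 1 place. The printed Ldha and Ankrd37 sequences held 3 places each, those of Slc2a1, Slc16a3 and Ddit4 held 2 each, and that of Tpi1 held none. Another annotated Ldha promoter, not printed, held 1. Among all 50 promoters of the 34 genes, some genes having several, 40 (80.0%) held a core and 21 (42.0%) held 2 or more. Of all 32851 promoters of the same length in the annotation, 38.6% held a core and 13.5% held 2 or more. The 50 promoters also had a median GC content of 61.0%, against 52.4% for all promoters, and the part of GC content in the difference was not tested. A core was found in 9 of the 10 genes with a promoter sequence that were lower in Zfp352-KO cells, and in 22 of the 24 that were not called. Gpi1 and Eno2 were the others without a match, and a match says only that these letters are present.

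Against Parental cells, 11 of the 36 genes were lower in Zfp352-KO cells and 0 were higher, where 3.64% of all genes tested were lower and 3.43% were higher. The 11 were the glycolytic enzyme genes Pfkl, Aldoa, Tpi1, Pgk1, Pgam1 and Ldha, the glucose transporter gene Slc2a1, the lactate exporter gene Slc16a3, and the hypoxia response genes Ankrd37, Ndrg1 and Ddit4. Their log2 fold changes ran from -0.89 for Ankrd37 to -0.20 for Pgam1, so the changes in the enzymes were small. Of all 36, 30 had a fold change below 0, and the median was -0.20, against -0.009 over all genes tested. In log2 CPM, counts scaled to library size, 15 of the 36 had every Zfp352-KO library below every Parental library and 0 had the opposite, against 14.4% and 13% of all genes. In bulk RNA, fewer cells that express a gene and less RNA per cell cannot be told apart.

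**Figure D1:**
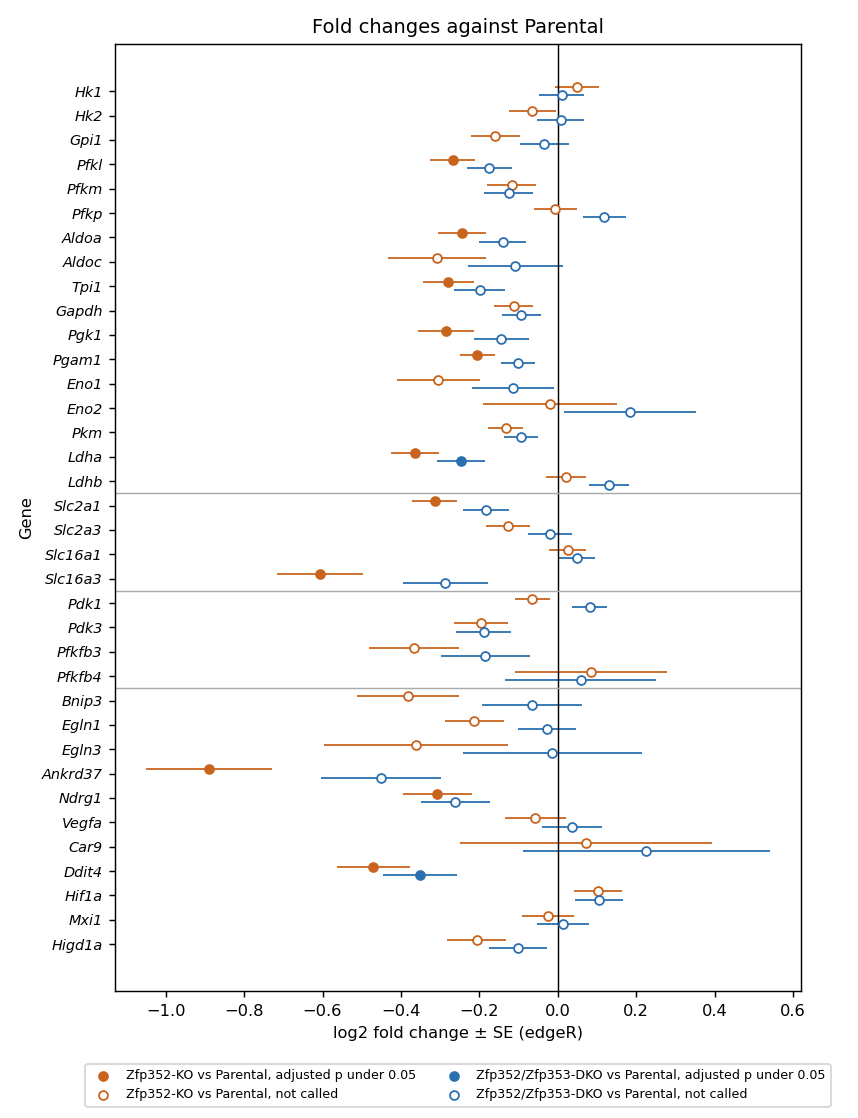
The log2 fold change against Parental, with its SE from edgeR, for each of the 36 genes in Zfp352-KO (orange) and Zfp352/Zfp353-DKO (blue) cells, 3 libraries per genotype; filled points have an adjusted p under 0.05. There are 11 filled orange points and 2 filled blue points, all to the left of 0.

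Among the glycolytic enzymes, 6 of 17 were lower in Zfp352-KO cells, with a median over the 17 of -0.16. In the upper, energy-consuming phase, Pfkl encodes the liver form of phosphofructokinase, which commits sugar to glycolysis. Its level was 203, 201 and 187 TPM in Parental libraries 1 to 3, 171, 159 and 177 TPM in Zfp352-KO, and 183, 169 and 186 TPM in Zfp352/Zfp353-DKO libraries. In TPM no edited library reached the lowest Parental library. Zfp352-KO cells had a log2 fold change of -0.27 ± 0.06 (edgeR adjusted p = 0.00944), compared with -0.17 ± 0.06 (edgeR adjusted p = 0.0636) for Zfp352/Zfp353-DKO cells. Aldoa, the main aldolase gene here, which splits the 6-carbon sugar, stood at 1597, 1578 and 1496 TPM in Parental, 1358, 1254 and 1458 TPM in Zfp352-KO, and 1509, 1384 and 1467 TPM in Zfp352/Zfp353-DKO libraries. The Zfp352-KO libraries lay below all Parental libraries, while 1 Zfp352/Zfp353-DKO library lay within their range. Its log2 fold change in Zfp352-KO was -0.25 ± 0.06 (edgeR adjusted p = 0.0221), but with trends of GC content and transcript length removed it was -0.11 (edgeR adjusted p = 0.164), which ends the call.

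Tpi1 encodes triosephosphate isomerase, which interconverts the 3-carbon sugars made by aldolase. Its level was 419, 408 and 396 TPM in Parental, 349, 310.4 and 381 TPM in Zfp352-KO, and 374, 350.3 and 372 TPM in Zfp352/Zfp353-DKO libraries. All 6 edited libraries lay below the Parental ones. The log2 fold change came to -0.28 ± 0.06 (edgeR adjusted p = 0.016) in Zfp352-KO and to -0.20 ± 0.06 (edgeR adjusted p = 0.0633) in Zfp352/Zfp353-DKO cells.

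Pgk1 encodes phosphoglycerate kinase, the first ATP-producing enzyme of the pathway. It stood at 1105, 1034 and 1029.8 TPM in Parental, 915, 782 and 988 TPM in Zfp352-KO, and 986, 906 and 1061 TPM in Zfp352/Zfp353-DKO libraries. In TPM the Zfp352-KO libraries were all below the Parental ones and the Zfp352/Zfp353-DKO libraries overlapped them. Zfp352-KO cells had a log2 fold change of -0.28 ± 0.07 (edgeR adjusted p = 0.0227), compared with -0.14 ± 0.07 (edgeR adjusted p = 0.219) for Zfp352/Zfp353-DKO cells. Pgam1 encodes the phosphoglycerate mutase that follows, and its level was 893, 873 and 902 TPM in Parental, 798, 785 and 806 TPM in Zfp352-KO, and 856, 814 and 886 TPM in Zfp352/Zfp353-DKO libraries. The Zfp352-KO libraries lay below all 6 others. Its log2 fold change in Zfp352-KO cells was -0.20 ± 0.04 (edgeR adjusted p = 0.00926), and -0.13 with the trends removed (edgeR adjusted p = 0.0239).

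Ldha encodes the lactate dehydrogenase subunit that favours lactate formation and lies at chr7:46842274-46855627 on GRCm38. Its level was 1296, 1194 and 1163 TPM in Parental, 971, 913 and 1047 TPM in Zfp352-KO, and 1073, 990.05 and 1106 TPM in Zfp352/Zfp353-DKO libraries. Each edited library lay below each Parental library. The log2 fold change came to -0.36 ± 0.06 (edgeR adjusted p = 0.00152) in Zfp352-KO and to -0.25 ± 0.06 (edgeR adjusted p = 0.0164) in Zfp352/Zfp353-DKO cells. Ldhb, whose product is the other common lactate dehydrogenase subunit, stood at 426, 424 and 443 TPM in Parental, 449.8, 429.9 and 477 TPM in Zfp352-KO, and 493, 479.9 and 481 TPM in Zfp352/Zfp353-DKO libraries. In TPM the Zfp352/Zfp353-DKO libraries were the 3 highest of the 9. Its log2 fold changes of 0.02 ± 0.05 (edgeR adjusted p = 0.84) and 0.13 ± 0.05 (edgeR adjusted p = 0.122) did not pass the test, but with the length and GC trends removed they were 0.12 (edgeR adjusted p = 0.0449) and 0.22 (edgeR adjusted p = 0.000236).

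The share of Ldha in the summed TPM of the lactate dehydrogenase genes was 75.1%, 73.6% and 72.3% for Parental libraries, 68.2%, 67.8% and 68.5% for Zfp352-KO, and 68.4%, 67.2% and 69.5% for Zfp352/Zfp353-DKO. All 6 edited libraries had a lower share than any Parental library, a description with no test. Likewise Pfkl made up 54.89%, 56.63% and 53.98% of phosphofructokinase TPM for Parental libraries, 49.41%, 51.32% and 52.03% for Zfp352-KO, and 51.15%, 50.73% and 50.04% for Zfp352/Zfp353-DKO, again with no overlap. Hk2 made up 72.6% ± 1.74 (SD, n = 3) of hexokinase TPM for Parental, 71.0% ± 1.39 for Zfp352-KO and 72.6% ± 1.01 for Zfp352/Zfp353-DKO libraries, which overlapped.

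The remaining 11 enzyme genes were not called in Zfp352-KO cells. Of the hexokinases, which trap glucose in the cell, Hk1 had a log2 fold change of 0.05 and Hk2 of -0.07. The isomerase gene Gpi1 had -0.16, and the other phosphofructokinase genes Pfkm and Pfkp had -0.12 and -0.01. The brain-type aldolase gene Aldoc had -0.31 ± 0.13 at a mean of 14.4 TPM in Parental cells. Gapdh, the dehydrogenase gene often used as a reference, had -0.11 ± 0.05 (edgeR adjusted p = 0.179), and Pkm, the pyruvate kinase gene, had -0.13 ± 0.04 (edgeR adjusted p = 0.0714). Eno2, the neuronal enolase gene, had -0.02 at a mean of 2.33 TPM in Parental cells.

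Eno1, the main enolase gene, had a log2 fold change of -0.31 ± 0.11 in Zfp352-KO cells (edgeR adjusted p = 0.0842). Its own value is uncertain, because its near-identical copy Eno1b took most of the shared reads and counts were divided between the pair. Summed over both genes the level was 2792, 2716 and 2584 TPM in Parental, 2511, 2375 and 2597 TPM in Zfp352-KO, and 2715, 2559 and 2694 TPM in Zfp352/Zfp353-DKO libraries. The Parental and Zfp352-KO libraries overlapped on this sum. With the counts summed, a step added after seeing the data, the log2 fold change was -0.16 ± 0.05 (edgeR adjusted p = 0.072). Counts of Pfkp, Aldoa and Gapdh were also not whole in any of the 9 libraries, so part of their reads was divided with other genes, and the other 32 of the 36 had whole counts throughout.

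**Figure D2:**
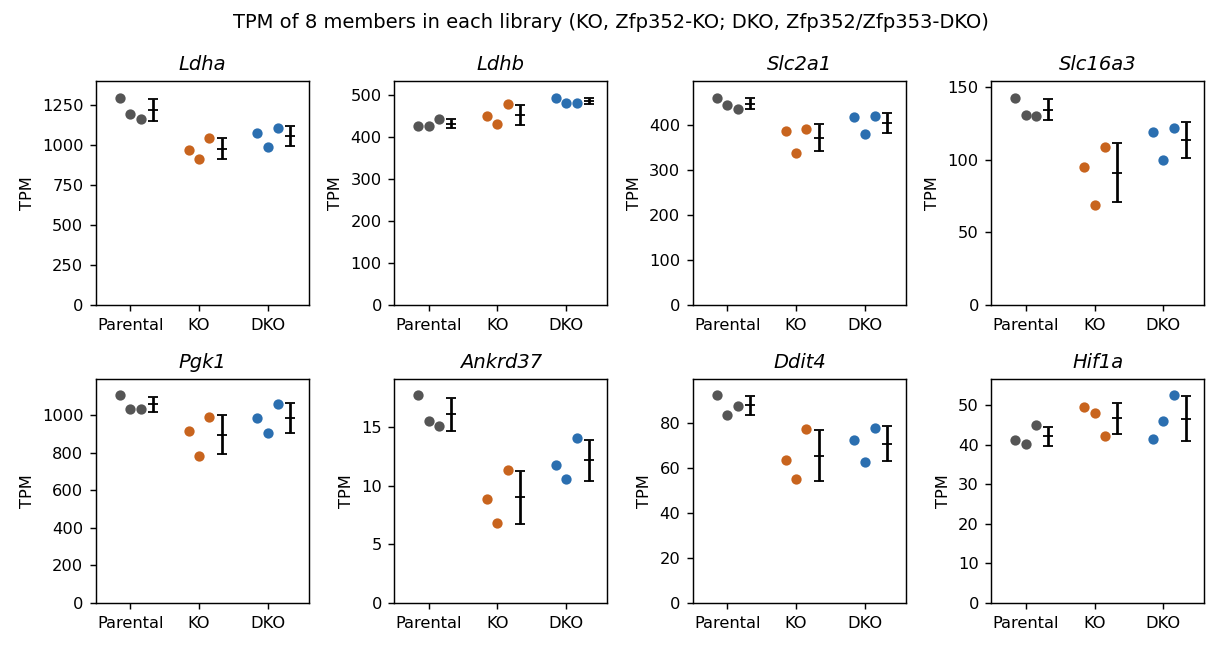
The level in TPM, on axes starting at 0, of 8 of the genes in each library of Parental, Zfp352-KO (KO) and Zfp352/Zfp353-DKO (DKO) cells; points are libraries and bars are the mean ± SD over 3 libraries. For Ldha, Slc2a1, Slc16a3, Ankrd37 and Ddit4 every edited library lies below every Parental library, and for Hif1a the genotypes overlap.

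Of the transporters, 2 of 4 were lower in Zfp352-KO cells. Slc2a1 encodes GLUT1, a glucose importer of most dividing cells, and its level was 461, 446 and 437 TPM in Parental, 387, 338 and 391 TPM in Zfp352-KO, and 417, 380.3 and 420.03 TPM in Zfp352/Zfp353-DKO libraries. All edited libraries lay below the Parental ones. Zfp352-KO cells had a log2 fold change of -0.31 ± 0.06 (edgeR adjusted p = 0.00332), compared with -0.18 ± 0.06 (edgeR adjusted p = 0.0568) for Zfp352/Zfp353-DKO cells. Slc2a3, for GLUT3, was the more abundant glucose transporter RNA at 555 ± 20.4 TPM (SD, n = 3) in Parental cells, and its log2 fold changes of -0.13 and -0.02 were not called.

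Slc16a3 encodes MCT4, an exporter of lactate. It stood at 143, 131 and 130.2 TPM in Parental, 95.2, 68.9 and 109 TPM in Zfp352-KO, and 119, 99.6 and 122 TPM in Zfp352/Zfp353-DKO libraries. No edited library overlapped the Parental ones, and Zfp352-KO library 2 was the lowest. The log2 fold change came to -0.61 ± 0.11 (edgeR adjusted p = 0.00286) in Zfp352-KO and to -0.29 ± 0.11 (edgeR adjusted p = 0.11) in Zfp352/Zfp353-DKO cells. Slc16a1, for MCT1, which moves lactate and pyruvate either way, had log2 fold changes of 0.02 and 0.05 and was not called in either comparison. The share of Slc16a3 in the summed TPM of the lactate transporter genes ran from 74.93% to 77.03% for Parental, 60.84% to 71.2% for Zfp352-KO and 68.83% to 73.43% for Zfp352/Zfp353-DKO libraries, without overlap between Parental and either edited genotype.

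None of the 4 regulatory kinases was called in either comparison. With the length and GC trends removed, 2 of them, Pdk1 and Pfkfb3, were lower in Zfp352-KO cells. DESeq2 also called Pfkfb3 lower there. Pdk1 and Pdk3 encode kinases that switch off pyruvate dehydrogenase and so keep pyruvate from the mitochondrial cycle, and their log2 fold changes in Zfp352-KO were -0.07 and -0.20 (edgeR adjusted p = 0.094 for Pdk3). Pfkfb3 and Pfkfb4 make or break down the sugar phosphate that activates phosphofructokinase. Pfkfb3 had a log2 fold change of -0.37 ± 0.11 in Zfp352-KO cells (edgeR adjusted p = 0.0606), and Pfkfb4, at a mean of 1.66 TPM in Parental cells, had 0.09.

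Of the 11 hypoxia response genes, 3 were lower in Zfp352-KO cells, with a median over the 11 of -0.21. Ankrd37 encodes an ankyrin repeat protein and is a known HIF target. It stood at 17.69, 15.49 and 15.04 TPM in Parental, 8.82, 6.81 and 11.3 TPM in Zfp352-KO, and 11.79, 10.6 and 14.04 TPM in Zfp352/Zfp353-DKO libraries. Every edited library lay below every Parental library. Zfp352-KO cells had a log2 fold change of -0.89 ± 0.16 (edgeR adjusted p = 0.00283), compared with -0.45 ± 0.15 (edgeR adjusted p = 0.073) for Zfp352/Zfp353-DKO cells.

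Ddit4 encodes REDD1, a stress-induced inhibitor of mTOR signalling. Its level was 92.5, 83.7 and 87.7 TPM in Parental, 63.7, 55.2 and 77.7 TPM in Zfp352-KO, and 72.4, 62.7 and 77.9 TPM in Zfp352/Zfp353-DKO libraries. The edited libraries were all below the Parental ones. The log2 fold change came to -0.47 ± 0.09 (edgeR adjusted p = 0.00619) in Zfp352-KO and to -0.35 ± 0.09 (edgeR adjusted p = 0.0261) in Zfp352/Zfp353-DKO cells. The Zfp352/Zfp353-DKO call for Ddit4 was lost with DESeq2 (adjusted p = 0.136), with limma (adjusted p = 0.112) and with the length and GC trends removed (-0.24, edgeR adjusted p = 0.0512), and it was kept under 15 of 22 other settings. Ndrg1, a stress-responsive gene known to rise in hypoxia, stood at 20.7, 21.2 and 20.5 TPM in Parental, 16.5, 15.4 and 20.01 TPM in Zfp352-KO, and 18.28, 16.32 and 18.96 TPM in Zfp352/Zfp353-DKO libraries. The Zfp352-KO libraries lay below the Parental ones, though Zfp352-KO library 3 was only just below the lowest of them. The log2 fold change in Zfp352-KO cells was -0.31 ± 0.09 (edgeR adjusted p = 0.0409), and the call was kept in 3 of the 9 fits that left out 1 library.

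Hif1a itself stood at 41.2, 40.2 and 44.9 TPM in Parental, 49.7, 48.2 and 42.3 TPM in Zfp352-KO, and 41.4, 46.01 and 52.5 TPM in Zfp352/Zfp353-DKO libraries. The genotypes overlapped, and the log2 fold changes of 0.10 ± 0.06 (edgeR adjusted p = 0.343) and 0.10 ± 0.06 (edgeR adjusted p = 0.316) were not called. With the length and GC trends removed, they were -0.02 and 0.001. RNA level says nothing of the HIF1A protein, which was not measured.

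The other 7 hypoxia response genes were not called, though Bnip3 was lower in Zfp352-KO cells with the length and GC trends removed. Bnip3, a gene of mitophagy, and Egln3, a HIF prolyl hydroxylase gene, differed most between libraries of 1 genotype. Bnip3 stood at 114, 109 and 104 TPM in Parental and at 92.6, 61.5 and 105 TPM in Zfp352-KO libraries, with a log2 fold change of -0.38 ± 0.13 (edgeR adjusted p = 0.0787). Egln3 stood at 14.5, 12.8 and 14.8 TPM in Parental and at 11.82, 5.54 and 16.61 TPM in Zfp352-KO libraries, with -0.36 ± 0.23 (edgeR adjusted p = 0.377). In both, Zfp352-KO library 2 was far below the other 8 libraries, and library 3 lay within or above the Parental range. The hydroxylase gene Egln1 had a log2 fold change of -0.21, the respiratory chain gene Higd1a -0.21, the angiogenic factor gene Vegfa -0.06, and Mxi1, for an antagonist of MYC, -0.03. Car9, a carbonic anhydrase gene known for strong induction by hypoxia, was under 1 TPM in all 9 libraries.

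In Zfp352/Zfp353-DKO cells, 2 of the 36 genes, Ldha and Ddit4, were lower than in Parental cells and 0 were higher, where 4.82% of all genes tested were lower and 3.65% were higher. A count of 2 in 36 is near that background. Of the 36, 24 had a fold change below 0, and the median was -0.09, against 0.000 over all genes tested. Every Zfp352/Zfp353-DKO library was below every Parental library for 11 genes and above it for 3, on the CPM scale, against 15% and 13.1% of all genes. Those above were Eno2, Ldhb and Pdk1. The 34 genes not called had log2 fold changes from -0.45 to 0.23 and edgeR adjusted p from 0.0568 to 0.979, and 12 of them had an unadjusted p under 0.05. Both comparisons use the same Parental libraries, so their values are given side by side and are not independent.

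The direct comparison of the edited genotypes tests whether their differences from Parental differ. Between Zfp352/Zfp353-DKO and Zfp352-KO cells 0 of the 36 genes were called by edgeR in either direction, where 0.0909% of all genes were lower and 0.014% were higher, and DESeq2 also called 0. The edgeR adjusted p ran from 0.416 to 0.999, and 9 genes had an unadjusted p under 0.05. In sign, 33 of the 36 genes were above 0, with a median of 0.11, against 0.001 over all genes tested, of which 7064 of 14300 were below 0. The highest log2 fold change was 0.44 ± 0.17 for Ankrd37 (edgeR adjusted p = 0.644), and Slc16a3 had 0.32 ± 0.11 (edgeR adjusted p = 0.543). On the CPM scale 2 genes, Pgam1 and Pdk1, had every Zfp352/Zfp353-DKO library above every Zfp352-KO library and 0 had the opposite, against 5.49% and 5.6% of all genes. A larger number of calls in Zfp352-KO than in Zfp352/Zfp353-DKO cells is thus not shown to be a difference between them.

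The genes also varied together from library to library. Zfp352-KO library 2 was the lowest of the 9 libraries for 27 of the 36 genes (75.0%), against 9.4% of all genes tested. Within genotypes, the lowest of the 3 libraries was Zfp352-KO library 2 for 29 genes, Zfp352/Zfp353-DKO library 2 for 26 and Parental library 3 for 27. The shares over all genes tested were 29.7%, 27.8% and 36.2%, in that order. Relative to the Parental mean, the median log2 difference over the 36 genes was 0.04, 0.01 and -0.06 in Parental libraries 1 to 3. It was -0.20, -0.26 and -0.07 in those of Zfp352-KO cells and -0.04, -0.15 and -0.05 in those of Zfp352/Zfp353-DKO cells. Zfp352-KO library 3 thus lay close to Parental library 3 and to the Zfp352/Zfp353-DKO libraries 1 and 3. Within each genotype the libraries had the same order in the 17 enzymes, whose summed TPM was 11803, 11517 and 11214 for Parental, 10555, 9844 and 10814 for Zfp352-KO, and 11226, 10537 and 11111 for Zfp352/Zfp353-DKO libraries. Since the 36 genes share this variation between libraries, they are not independent of each other.

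**Figure D3:**
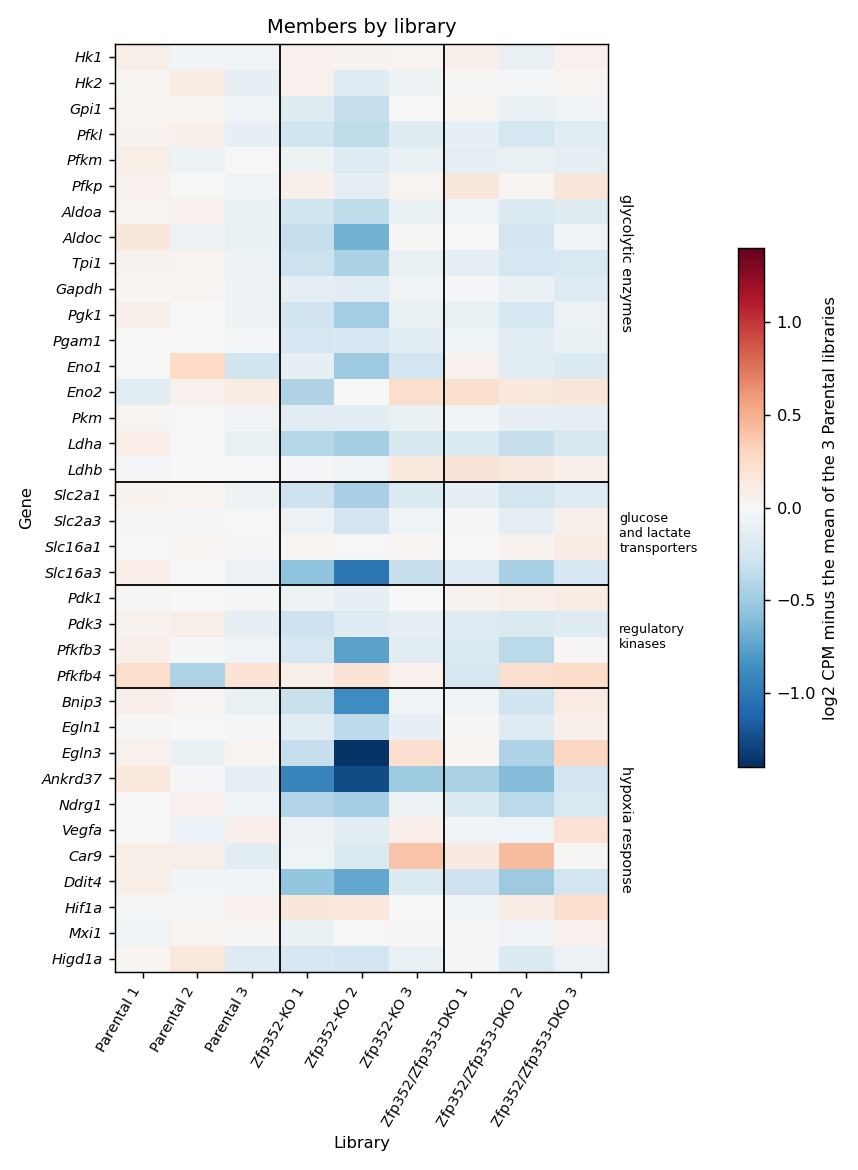
Log2 CPM of each of the 36 genes in each of the 9 libraries, minus the mean of the 3 Parental libraries (blue below, red above), with genes ordered by role. The column of Zfp352-KO library 2 is the bluest and holds the lowest value of 27 of the 36 genes.

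The count of 11 depended on which libraries were in the fit. Without Parental library 1 it was 4, without Parental library 2 it was 6, without Zfp352-KO library 1 it was 6, and without Zfp352-KO library 2 it was 5. Calls over all genes fell in the same fits, from 520 lower to 160, 244, 199 and 220, in that order. The 4 genes lower under all 22 other settings tried, which include the 9 fits that each left out 1 library, were Ldha, Slc2a1, Slc16a3 and Ankrd37. Without Zfp352-KO library 3 the count was 16, against 533 lower of 14487 genes tested. For Zfp352/Zfp353-DKO the count of 2 became 0 without Parental library 1, Parental library 2 or Zfp352/Zfp353-DKO library 2. Over all genes, 689 lower became 326, 427 and 388 in those fits, in that order. The count was 6 without Parental library 3, 5 without Zfp352-KO library 2, 7 without Zfp352-KO library 3 and 3 without Zfp352/Zfp353-DKO library 1. Those fits had 673, 572, 663 and 634 lower over all genes, in that order, with 14473 to 14495 genes tested.

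**Figure D4:**
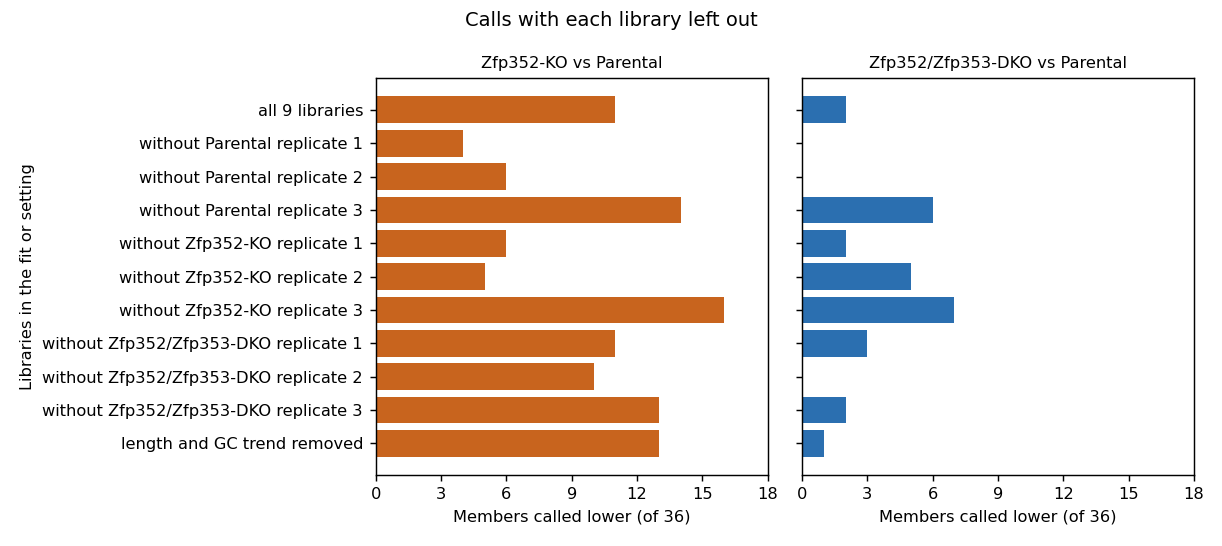
Number of the 36 genes called lower than in Parental, with all 9 libraries, with each library left out in turn and with the length and GC trends removed, for Zfp352-KO (left) and Zfp352/Zfp353-DKO (right). The Zfp352-KO count runs from 4 to 16 and the Zfp352/Zfp353-DKO count from 0 to 7.

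Transcript length and GC content also moved with the libraries. The rank correlation across genes between transcript length and a library's deviation from the mean of all libraries ran from -0.402 in Parental library 2 to 0.394 in Zfp352-KO library 1, and that of GC content from -0.363 in Zfp352/Zfp353-DKO library 3 to 0.364 in Parental library 3. For the 36 genes the median transcript length was 2636 bases and the median GC content 52.9%, against 2805 bases and 50.8% for all genes tested. With both trends removed, 13 of the 36 were lower in Zfp352-KO cells and 1, Ldhb, was higher, against 2.56% and 3.01% of all genes, and the median was -0.14. For Zfp352/Zfp353-DKO cells it was 1 lower, Ldha, and 1 higher, Ldhb, against 4.59% and 5.73% of all genes. Between the edited genotypes 0 of the 36 were called with the trends removed, against 0.309% lower and 0.0702% higher of all genes.

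Markers of other cell types moved with genotype as well. For comparison, 3.64% of all genes tested were lower and 3.43% higher in Zfp352-KO cells, and 4.82% and 3.65% in Zfp352/Zfp353-DKO cells. Of 16 tested fibroblast-type markers 8 were lower in each edited genotype, and the summed TPM of all 19 on the list was 362 to 375 in Parental, 260.4 to 276 in Zfp352-KO and 216 to 232 in Zfp352/Zfp353-DKO libraries, with Col6a1, Postn, Lum, Dcn, Pdgfra and Prrx1 under 1 TPM in every library. Of 13 tested trophectoderm markers 5 were lower in each, with sums of 417 to 476, 311 to 316 and 277 to 291 TPM. Of 13 tested primitive endoderm markers 3 were lower in Zfp352-KO cells, and 4 were lower and 1, Lama1, was higher in Zfp352/Zfp353-DKO cells. Of 7 tested primitive streak markers 4 and 3 were lower. Primitive endoderm markers summed to 234 to 244, 197 to 217 and 185 to 202 TPM, and primitive streak markers to 19.5 to 24.2, 11.9 to 12.8 and 12.0 to 13.7 TPM. Of 5 tested neural progenitor markers 1, Nes, was lower in each edited genotype and 1, Ncam1, was higher in Zfp352-KO cells, with sums of 25.45 to 25.71, 24.01 to 24.95 and 20.96 to 21.21 TPM. Elf5 of the trophectoderm, Sox17, Sox7, Foxa2 and Cubn of the primitive endoderm, Mixl1, Mesp1, Tbx6 and Evx1 of the primitive streak, and Sox1, Zfp521, Zic1 and Olig2 of neural progenitors were under 1 TPM in every library. The fibroblast-type, trophectoderm and neural progenitor sums were lowest in Zfp352/Zfp353-DKO cells. The primitive endoderm and primitive streak sums overlapped between the edited genotypes. The 36 genes had their lowest medians in Zfp352-KO libraries 1 and 2. The part of these cell types, of transcript length and GC content and of single libraries in the results above was not tested.

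Other genes of the pathway came from lists of related genes. The shares of all genes called lower and higher were 3.64% and 3.43% in Zfp352-KO, and 4.82% and 3.65% in Zfp352/Zfp353-DKO cells. Of 31 tested further glycolytic isozymes and genes of pyruvate entry, 2 were lower and 0 higher in Zfp352-KO cells, and 1 was lower and 1 higher in Zfp352/Zfp353-DKO cells. Eno3, the muscle enolase gene, was 25.9, 26.1 and 25.9 TPM in Parental, 18.5, 24.1 and 21.0 TPM in Zfp352-KO, and 21.6, 21.1 and 19.9 TPM in Zfp352/Zfp353-DKO libraries. It was lower in both, with log2 fold changes of -0.34 ± 0.09 (edgeR adjusted p = 0.0302) and -0.36 ± 0.09 (edgeR adjusted p = 0.0182), but with the trends removed the first was -0.23 (edgeR adjusted p = 0.0912). Bsg, for the chaperone that brings MCT1 and MCT4 to the cell surface, was lower in Zfp352-KO cells at -0.18 ± 0.05 (edgeR adjusted p = 0.0374), but at -0.04 with the length and GC trends removed. Ldhd, for a D-lactate dehydrogenase, was higher in Zfp352/Zfp353-DKO cells at 0.57 ± 0.15 (edgeR adjusted p = 0.0238).

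Of 52 tested further hypoxia response genes, 7 were lower and 1 was higher in Zfp352-KO cells, and 1 was lower and 1 higher in Zfp352/Zfp353-DKO cells, with medians of -0.09 and -0.02. Fam162a, a mitochondrial gene known to be induced by HIF, was 202, 214 and 196 TPM in Parental, 166, 153 and 172 TPM in Zfp352-KO, and 195, 177 and 179 TPM in Zfp352/Zfp353-DKO libraries. Its log2 fold change was -0.37 ± 0.07 in Zfp352-KO cells (edgeR adjusted p = 0.00325). Stc2, for a secreted glycoprotein, had -0.34 ± 0.08 there (edgeR adjusted p = 0.0129). Cited2, for a hypoxia-induced protein that competes with HIF for CBP and p300, was lower in both edited genotypes, at -0.26 ± 0.06 (edgeR adjusted p = 0.0224) and -0.39 ± 0.07 (edgeR adjusted p = 0.000779). Zfp292 was higher in both, at 0.33 ± 0.07 (edgeR adjusted p = 0.00881) and 0.35 ± 0.07 (edgeR adjusted p = 0.00372), but at 0.09 (edgeR adjusted p = 0.179) and 0.16 (edgeR adjusted p = 0.00393) with the trends removed.

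Of 26 tested genes of the HIF machinery 0 were lower and 3 were higher in each edited genotype. Among all genes, 3.64% were lower and 3.43% higher in Zfp352-KO, and 4.82% and 3.65% in Zfp352/Zfp353-DKO cells. Arnt, for the partner of HIF alpha subunits, was 40.9, 41.9 and 43.8 TPM in Parental, 53.7, 47.8 and 47.2 TPM in Zfp352-KO, and 47.02, 47.4 and 51.6 TPM in Zfp352/Zfp353-DKO libraries. Its log2 fold changes were 0.18 ± 0.05 (edgeR adjusted p = 0.0317) and 0.17 ± 0.05 (edgeR adjusted p = 0.0453). The deacetylase gene Sirt1 was higher in both at 0.22 and 0.25, the chaperone gene Hsp90aa1 in Zfp352-KO at 0.16, and the co-activator gene Crebbp in Zfp352/Zfp353-DKO at 0.32 (edgeR adjusted p = 0.0494).

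Calls in pathways beside glycolysis stand against 3.64% lower and 3.43% higher of all genes tested in Zfp352-KO cells. In Zfp352/Zfp353-DKO cells those shares were 4.82% and 3.65%. The lists are small, and their counts were not tested against these shares. Of 24 genes of the TCA cycle 0 were called in either comparison. Of 14 tested pentose phosphate genes, Pgls, for 6-phosphogluconolactonase, was lower in Zfp352-KO cells at -0.23 ± 0.06 (edgeR adjusted p = 0.0223), but had 0.01 with the length and GC trends removed. Of 14 tested genes of gluconeogenesis and glycogen, the phosphorylase kinase gene Phkb was higher in both edited genotypes, at 0.22 and 0.25, but in Zfp352-KO cells it had 0.13 with the trends removed (edgeR adjusted p = 0.126). Among 27 MYC, mTOR and other regulators, Myc, whose product is known to raise transcription of glycolytic genes, was 53.3, 53.1 and 51.6 TPM in Parental, 47.03, 49.8 and 41.8 TPM in Zfp352-KO, and 43.8, 47.2 and 42.9 TPM in Zfp352/Zfp353-DKO libraries. All edited libraries were below the Parental ones, with log2 fold changes of -0.24 ± 0.06 (edgeR adjusted p = 0.0314) and -0.28 ± 0.06 (edgeR adjusted p = 0.00986). With the trends removed, the first was -0.16 (edgeR adjusted p = 0.0959). Sp1 was higher in Zfp352-KO cells at 0.22 (edgeR adjusted p = 0.0479, and 0.06 with the trends removed), and Usf1 was lower in Zfp352/Zfp353-DKO cells at -0.20 (edgeR adjusted p = 0.0217, and -0.10 with the trends removed, which ends the call). With the trends removed, 0 of the 27 were lower and 2 higher in Zfp352-KO cells, against 2.56% and 3.01% of all genes. In Zfp352/Zfp353-DKO cells 1 was lower and 4 were higher, against 4.59% and 5.73%.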

How the data were processed

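RNA was measured in 9 mouse EB5 embryonic stem cell libraries, 3 per genotype. Per the labels' protocols, stranded TruSeq libraries were read as single ends of 75 bases. The submitters' processing notes name Trim Galore 0.6.6, STAR 2.7.8a, RSEM 1.3.3 and mm10; their settings, the annotation release and strand use in counting were not given in the sources used here. Per the file headers, the authors deposited an expected count per gene, an estimate in which 9.27% of values were not whole, and TPM and FPKM, normalized for length and depth. FPKM in the deposited tables was not used, and TPM served for levels and an alternative test.

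Each expected count was rounded to a whole number. The test was the two-sided quasi-likelihood F test of edgeR 4.0.16 (R 4.3.3), with TMM factors from 0.992 to 1.01, filterByExpr and no block. Its single fit by genotype took all 9 libraries and left 6 residual degrees of freedom. All 36 genes were among the 14300 tested. The biological coefficient of variation was 4.95%. Counts of same-genotype libraries differed beyond sampling noise (chi-square per degree of freedom 2.51 to 7.04), so none was treated as a duplicate. Alternatives were DESeq2 1.42.0, other scalings and filters, limma 3.58.1 on log2(TPM + 1) and log2(TPM + 0.1), an offset removing a local regression (span 0.3) of log2 CPM on length and GC content in each library (GC found for 99.6% of genes), the replicate number as a block, fits on only the 6 libraries of a comparison, and leaving out each library in turn. The summing of Eno1 and Eno1b was added after seeing the data.

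Values in each library are given for called genes of the 36 (up to 14, smallest adjusted p) and for Hif1a; from each list of other genes, up to 4 called genes with the smallest adjusted p are named, and values in each library are given for some of them. Ldhb, Eno1 with Eno1b, Bnip3 and Egln3 were chosen after their values were seen. The genes and lists were chosen with earlier results of these data known.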

Additional observations from a re-analysis of the deposited data

How the results depend on the processing

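The direction of the 13 calls against Parental was kept under all 22 other settings tried. Of the 11 genes lower in Zfp352-KO cells, 4 stayed called in all of them, and Ddit4 in 21. Against Parental, limma on log2(TPM + 1) and on log2(TPM + 0.1) called 7 and 7 of the 36 genes lower in Zfp352-KO cells, and 0 and 0 lower and 1 and 1 higher in Zfp352/Zfp353-DKO cells. With length and GC trends removed, 13 were lower and 1 was higher in Zfp352-KO, and 1 was lower and 1 higher in Zfp352/Zfp353-DKO cells. With no filter on low counts, Zfp352/Zfp353-DKO had 8 lower, against 804 of 19817 over all genes. In that setting 1 gene, Slc16a3, was higher in Zfp352/Zfp353-DKO than in Zfp352-KO cells, against 22 over all genes. In the 6 libraries compared, Zfp352/Zfp353-DKO had 7 lower, against 676 of 14108 over all genes. Leaving out each library gave 4 to 16 lower in Zfp352-KO and 0 to 7 lower in Zfp352/Zfp353-DKO cells; the cause was not tested. DESeq2 called 13 lower in Zfp352-KO and 2 lower, Ldha and Slc2a1, in Zfp352/Zfp353-DKO cells, against 372 and 494 of the 19817 genes fitted.

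The replicate numbers in the titles were to count as pairs only if all 9 same-number correlations of deviations were over 0.1, and 1 was. They ran from -0.0767 to 0.106, against -0.0845 to 0.101 for libraries with different numbers. Still, 6 of 9 libraries correlated best with their own number, and a weaker link could not pass this rule. With a replicate block, 2 of the 36 genes were lower in Zfp352/Zfp353-DKO cells. Over all 14300 genes, 534 were lower and 333 higher there, against 689 and 522 without the block. In Zfp352-KO cells 11 of the 36 were lower (337 lower and 232 higher over all genes, against 520 and 490 without). The 11 differ by 1 gene: Ndrg1 lost its call (edgeR adjusted p = 0.0589) and Pfkfb3 gained it. With the block and the trend removal together, 13 of the 36 were lower and 1 higher in Zfp352-KO cells, against 365 and 450 of 14249 genes. For Zfp352/Zfp353-DKO cells it was 2 lower and 1 higher, against 646 and 821 over all genes. Over all genes, these other Zfp352-KO counts differed by over 1.5 times: 160 lower and 50 higher without Parental library 1, 244 and 138 without Parental library 2, 199 and 78 without Zfp352-KO library 1, 220 and 150 without Zfp352-KO library 2, 237 and 122 and 228 and 124 with limma, and, for higher genes, 843 with no filter, 759 in the 6 libraries compared and 838 without Zfp352-KO library 3 or Zfp352/Zfp353-DKO library 3. For Zfp352/Zfp353-DKO they were 326 and 123 without Parental library 1, 427 and 222 without Parental library 2, 388 and 258 without Zfp352/Zfp353-DKO library 2, 385 and 193 and 373 and 197 with limma, and, for higher genes, 800 with no filter, 821 with block and trends and 224 without Zfp352/Zfp353-DKO library 3. Between the edited genotypes, 13 lower and 2 higher became 1 to 44 lower and 0 to 22 higher over the settings. The removal of trends changed the Zfp352/Zfp353-DKO split from 689 lower and 522 higher to 654 and 817. Car9, under 1 TPM throughout, had 11 to 19 counts per library, so its fold changes rest on few reads.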
